A study of Mus musculus with 7 samples.

Results

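The transcripts of 34 genes of glucose use were followed in the cerebral cortex of mice lacking the creatine transporter gene Slc6a8. The genes were chosen by their role, from a table of 24346 genes. They encode glucose transporters (2 genes), monocarboxylate transporters (2), enzymes of upper glycolysis (9), PFKFB enzymes (3), enzymes of lower glycolysis (6), lactate dehydrogenase subunits (2), enzymes of glycogen metabolism (6) and enzymes of the pentose phosphate pathway (4). Cortical RNA was sequenced from 4 CrT-/y males (KO 0 to KO 3), hemizygous for a deletion of exons 5 to 7 of Slc6a8, and from 3 CrT+/y littermate males (WT 1 to WT 3). All 7 animals were on a C57BL/6J background and were taken at postnatal day 100. Each animal gave 1 library, so every p-value sets a difference against the spread between animals, moderated over all genes tested. Values are FPKM, fragment numbers scaled to transcript length and to the mapped fragments of the library, which allows levels to be compared between genes.

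Glycolysis splits glucose into pyruvate and yields ATP. Pyruvate is oxidised in mitochondria or exchanged with lactate, which brain cells pass to each other through monocarboxylate transporters. Glycogen, in the cortex held largely by astrocytes, is a local glucose store, and the pentose phosphate pathway diverts glucose 6-phosphate to make NADPH and ribose. The creatine and phosphocreatine pair buffers ATP, so glucose use is a nearby branch of the energy supply in tissue that cannot import creatine.

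Slc6a8 itself, the check of the genotype, stood at 12.4 to 15.7 FPKM in CrT-/y and 28.0 to 32.3 FPKM in CrT+/y cortex (log2 fold change -1.05, SE 0.087, adjusted p = 0.0024, limma). Relative depth, read from weakly expressed genes as log2 against WT 1, was 0.08 and 0.28 in the other CrT+/y libraries and 0.08 to 0.52 in the CrT-/y libraries, so the latter held the deepest library. Absolute depth was not used here. A gene was called when its limma adjusted p was under 0.1, and of the 12988 genes tested 10.1% were called, 2.90% higher and 7.25% lower in CrT-/y. Among these calls 28.6% were higher, against 48.8% after quantile normalization, 48.2% after median centring, 61.5% after upper quartile scaling and 46.9% after removal of the transcript length trend. WT 3 stood apart in that its omission raised the genes called from 1318 to 3736 (28.7% of 12997), whereas omission of any other single animal lowered them, to between 64 and 753. WT 2 stood apart for choroid plexus markers, with Ttr at 379.4 FPKM against 0.32 to 47.9 in the other 6 animals. The results below are therefore also given without WT 3 where they rest on it. That fit leaves only WT 1 and WT 2 as CrT+/y animals. WT 3 was singled out because its omission raised the calls, so adjusted p values without it are descriptive only.

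The transcripts of glucose use were close to each other in both genotypes. All 34 genes passed the filter of a mean of at least 1 FPKM. None was called higher, and only Pkm, the muscle-type pyruvate kinase that is also the main form in brain, was called lower, which is 2.94% of the 34. Of the 34 differences 16 were above 0 and 18 below, with a median log2 fold change of -0.0013 against -0.03 over all genes tested. The median size of the difference, whatever its sign, was 0.08 on the log2 scale, against 0.12 over all genes. For 32 of the 34 genes the 95% interval of the difference lay within 0.5 log2 units of 0 (94.1%, against 79.4% of all genes tested). Pfkfb3 and Pygl were the exceptions. The interval lay within 0.25 log2 units for 15 genes (44.1% against 27.7%). Many of the 34 genes were abundant, and they were not matched for level with all genes tested. The part of level in these shares and sizes was not tested.

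**Figure D1:**
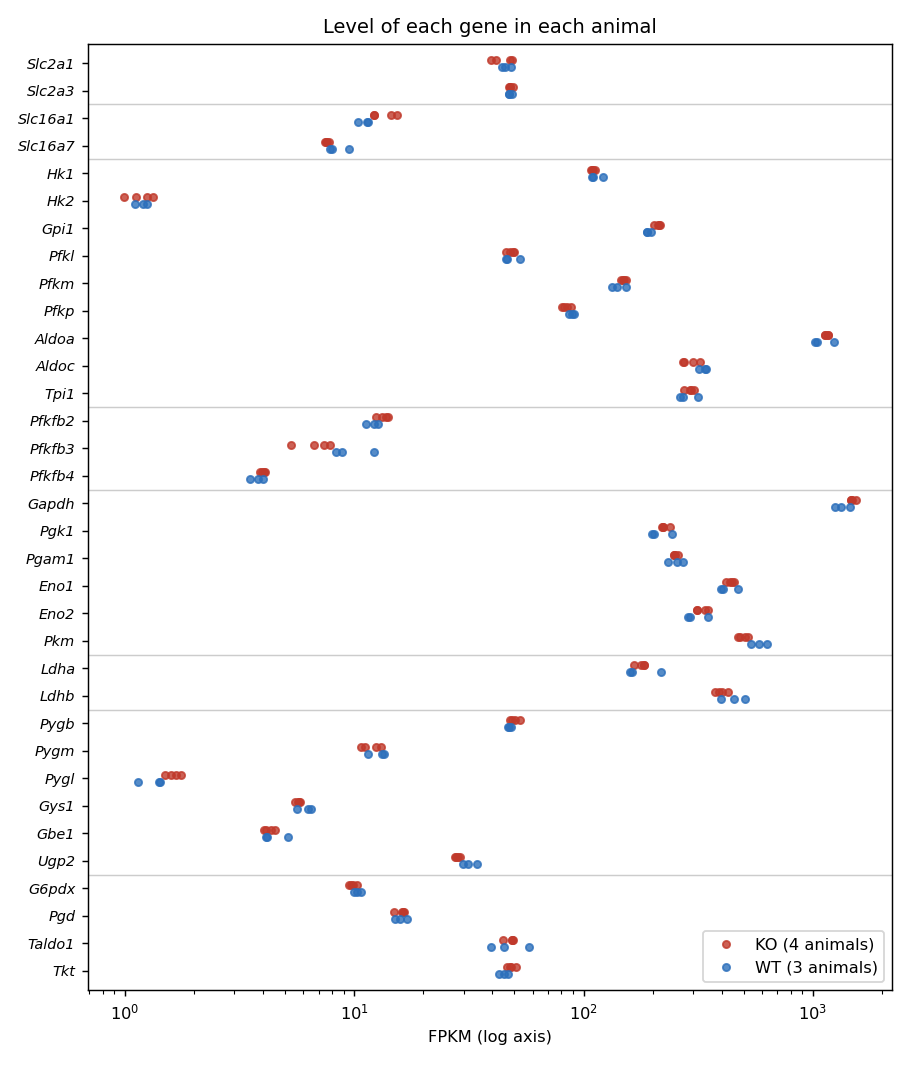
Level of each of the 34 genes in each animal, in FPKM on a log axis. Each point is 1 animal, red for the 4 CrT-/y (KO) and blue for the 3 CrT+/y (WT) animals, and horizontal lines separate the role groups. The genes run from Hk2 and Pygl between 1 and 2 FPKM at the low end to Aldoa and Gapdh at the high end, and for most genes the red and blue points cover the same stretch.

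The levels spanned 3 orders of magnitude. Gapdh, which oxidises glyceraldehyde 3-phosphate, was the 4th most abundant gene of the table by mean FPKM, and Aldoa, the broadly expressed aldolase, was the 8th. Pkm ranked 58th, Eno1 86th and Ldhb 93rd. At the other end Hk2, the inducible hexokinase, and Pygl, the liver-type glycogen phosphorylase, had means between 1 and 2 FPKM in both genotypes. The 34 transcripts together made up 1.65% to 1.72% of summed FPKM in the 4 CrT-/y animals. In CrT+/y they made up 1.57% in WT 1, 1.59% in WT 2 and 1.70% in WT 3, so the range of CrT-/y overlapped that of CrT+/y through WT 3. The median deviation of the 34 genes from their 7-animal means was -0.05 in WT 1, -0.04 in WT 2 and 0.05 in WT 3, and lay between -0.02 and 0.01 in the 4 CrT-/y animals, on the log2 scale.

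The animals of both genotypes did not overlap for 8 of the 34 genes (23.5%), against 21.6% of all genes tested. Slc16a1, Gpi1, Gapdh and Pygl lay higher in CrT-/y in every animal (background 6.57%), and Slc16a7, Pfkfb3, Pkm and Ugp2 lay lower (background 15.0%). The share of the 34 without overlap was thus near that of the table. An unadjusted p under 0.05 was reached by 6 genes (17.6%, against 25.04% of all genes).

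Stretches ahead of transcription starts listed by RefSeq are shown for 4 of the genes discussed most, to let the letters around or without the E-box CACGTG be read. The letters come from the RefSeq promoter windows of GRCm38.p6 (250 bases before to 50 after each listed start). They were cut to at most 150 bases of the part that holds no annotated exon, and read 5′ to 3′ on the strand of the gene. The Slc16a1 stretch was placed so that it holds its CACGTG. Capitals mark CACGTG. The Slc16a1 stretch (chr3:104638444-104638593, plus strand) lies ahead of the annotated gene, as does the Gpi1 stretch (chr7:34230337-34230419, minus strand). Pfkfb3 is shown at both of its listed starts, the first stretch (chr2:11554078-11554179, minus strand) ahead of the annotated gene and the second (chr2:11502102-11502251, minus strand) in an intron. The Pkm stretch (chr9:59656977-59657086, plus strand) lies in an intron as well, ahead of a start inside the gene.
Slc16a1: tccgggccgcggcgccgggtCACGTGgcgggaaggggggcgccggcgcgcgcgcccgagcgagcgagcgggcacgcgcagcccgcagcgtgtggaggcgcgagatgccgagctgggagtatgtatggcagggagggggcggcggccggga
Pfkfb3, first start: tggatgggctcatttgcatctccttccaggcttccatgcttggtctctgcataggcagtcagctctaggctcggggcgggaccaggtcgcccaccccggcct
Pfkfb3, second start: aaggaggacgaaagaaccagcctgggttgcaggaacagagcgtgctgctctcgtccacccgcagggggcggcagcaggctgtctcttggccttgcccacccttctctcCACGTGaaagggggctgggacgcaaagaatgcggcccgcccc
Gpi1: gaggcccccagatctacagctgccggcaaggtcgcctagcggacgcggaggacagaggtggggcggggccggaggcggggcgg
Pkm: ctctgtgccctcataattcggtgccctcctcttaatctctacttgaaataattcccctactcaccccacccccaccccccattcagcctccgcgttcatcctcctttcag

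Over the full windows, which were found for 32 of the 34 genes (48 windows, none for Slc2a3 or Slc16a7), the shorter word ACGTG, the core of the hypoxia response element, stood on either strand in 23 windows (47.9%) and in at least 1 window of 19 genes. It stood in 19.6% of all 32851 windows and in 25.04% of the windows of tested genes. CACGTG, which contains ACGTG, stood in 5 windows of 5 genes (10.4% of windows), against 7.15% of all windows and 9.81% of those of tested genes. CACGTG stood in the window of Slc16a1 and in the second window of Pfkfb3. The shorter word also stood outside the printed stretches: at 1 place in the window of Slc16a1, in the first window of Pfkfb3, 60 bases before the start, and at 2 places in the window of Pkm from which the stretch is taken, 1 of them 75 bases before the start. The window of Gpi1 held neither word. These matches describe letters only.

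The 2 glucose transporters of the brain did not differ beyond the spread of the animals. Slc2a3, which carries glucose into neurons, measured 47.7, 47.2, 47.7 and 49.1 FPKM in KO 0 to KO 3 and 48.8, 47.4 and 47.3 FPKM in WT 1 to WT 3. All 7 values lay within 2 FPKM of each other and the groups overlapped. On the log2 scale the difference was 0.0021 (95% interval -0.10 to 0.11, adjusted p = 0.98). Slc2a1, the transporter of the blood-brain barrier and of glia, measured 41.5, 47.8, 49.0 and 39.5 FPKM in KO 0 to KO 3 and 44.2, 45.3 and 48.1 FPKM in WT 1 to WT 3. KO 0 and KO 3 were the lowest and KO 2 the highest of the 7, so the CrT+/y values lay inside the CrT-/y range. The difference was -0.05 on the log2 scale (95% interval -0.24 to 0.14, adjusted p = 0.74), and it turned to 0.014 after quantile normalization and to 0.012 after upper quartile scaling.

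The monocarboxylate transporters, which move lactate, pyruvate and ketone bodies across membranes, lay apart by genotype in opposite directions without passing the test. Slc16a1 (chr3:104638668-104658462, plus strand, GRCm38) encodes MCT1, found in endothelium, astrocytes and oligodendrocytes. It measured 14.4, 12.2, 15.3 and 12.2 FPKM in KO 0 to KO 3 and 11.4, 10.4 and 11.5 FPKM in WT 1 to WT 3. All 4 CrT-/y values were above the 3 CrT+/y values, with KO 0 and KO 2 well above the other two. This was a log2 fold change of 0.28 (SE 0.093, 95% interval 0.07 to 0.49, adjusted p = 0.12). Slc16a7, the high-affinity MCT2 of neurons, stood at 7.47 to 7.80 FPKM in CrT-/y and 7.88 to 9.5 FPKM in CrT+/y, with a log2 fold change of -0.15 (SE 0.078, adjusted p = 0.27). The highest CrT-/y and the lowest CrT+/y value of Slc16a7 were less than 0.1 FPKM apart, and the highest value was that of WT 3. Without WT 3 the log2 fold change of Slc16a7 was -0.06 (adjusted p = 0.49), and that of Slc16a1 was 0.30 (adjusted p = 0.088).

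The log2 ratio of Slc16a1 to Slc16a7 within an animal, which a single factor per library cannot alter, was 0.92, 0.70, 0.97 and 0.69 in KO 0 to KO 3 and 0.54, 0.38 and 0.27 in WT 1 to WT 3. Its mean was 0.82 ± 0.15 (SD, n = 4) in CrT-/y and 0.40 ± 0.13 (SD, n = 3) in CrT+/y, a ratio of 1.77 against 1.32, and the genotypes did not overlap. Since each of these genes was already free of overlap, in opposite directions, the ratio had to be so too and is no separate observation. It was not tested. Slc16a1 is expressed by endothelium, and of 7 endothelial markers 2 were called lower (Pecam1 and Flt1) and none higher. Their summed level was 78.6 to 93.7 FPKM in CrT-/y and 92.8 to 105.6 FPKM in CrT+/y. In whole tissue fewer cells of a type and less RNA per cell cannot be told apart, and the part of the endothelial markers in the values of Slc16a1 and Slc2a1 was not tested.

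None of the 9 genes of upper glycolysis was called, and their median log2 fold change was -2.2e-06. Aldoa measured 1126, 1125, 1161 and 1165 FPKM in KO 0 to KO 3 and 1017, 1042 and 1240 FPKM in WT 1 to WT 3. The CrT-/y animals sat close together between WT 2 and WT 3, and the difference was 0.06 (95% interval -0.12 to 0.24, adjusted p = 0.66). Aldoc, the aldolase of astrocytes, measured 320.9, 275.4, 299.4 and 270.9 FPKM in KO 0 to KO 3 and 341.9, 318.9 and 337.0 FPKM in WT 1 to WT 3. Only KO 0 and WT 2 overlapped, by under 2 FPKM. Aldoc thus had a log2 fold change of -0.19 (SE 0.071, 95% interval -0.35 to -0.03, adjusted p = 0.14). None of 8 astrocyte markers was called, and their summed level was 881.0 to 954.0 FPKM in CrT-/y and 919.5 to 1107 FPKM in CrT+/y, so it overlapped between genotypes. Its part in the value of Aldoc was not tested.

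Gpi1 (chr7:34201330-34230336, minus strand) encodes glucose 6-phosphate isomerase. It stood at 202.1 to 215.5 FPKM in CrT-/y and 188.5 to 197.1 FPKM in CrT+/y, a difference of 0.14 (SE 0.051, adjusted p = 0.15), with no overlap. Hk1, the hexokinase of brain that commits glucose to the cell, averaged 109.7 ± 2.0 FPKM over the 4 CrT-/y animals, against 113.5 ± 7.5 FPKM over the 3 CrT+/y animals (means ± SD), a log2 fold change of -0.05 that turned to 0.015 after upper quartile scaling. Hk2 averaged 1.18 FPKM in CrT-/y and 1.19 FPKM in CrT+/y, with the widest interval of the 9 genes (-0.37 to 0.33). The difference of Tpi1, triose phosphate isomerase, was 0.03 (adjusted p = 0.82).

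Phosphofructokinase, whose subunits Pfkm, Pfkl and Pfkp form the tetramer that commits hexose to glycolysis, had no subunit called. Pfkm averaged 149.7 FPKM in CrT-/y and 142.0 FPKM in CrT+/y, Pfkp 83.7 and 88.8 FPKM, and Pfkl 48.3 FPKM in each genotype. The log2 ratio of Pfkp to Pfkm was -0.89 to -0.79 in CrT-/y and -0.78 to -0.56 in CrT+/y, and that of Pfkl to Pfkm was -1.67 to -1.59 and -1.59 to -1.54. Neither ratio overlapped between genotypes, CrT-/y being the lower, by a margin of less than 0.02 between the nearest animals. They share Pfkm, are not separate observations and were not tested.

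The PFKFB enzymes make and break fructose 2,6-bisphosphate, the main activator of phosphofructokinase, and none was called. Pfkfb3 (chr2:11471433-11554077, minus strand) encodes the form with the strongest bias toward synthesis. It measured 6.65, 7.87, 7.42 and 5.33 FPKM in KO 0 to KO 3 and 8.87, 12.2 and 8.32 FPKM in WT 1 to WT 3. All 4 CrT-/y values were below the 3 CrT+/y values, KO 3 was lowest, and WT 2 was far above the rest. The log2 fold change was -0.51 (SE 0.159, 95% interval -0.87 to -0.15), the largest of the 34 in size, and the adjusted p of 0.1001 fell just outside the threshold. Pfkfb3 was called in 4 of 17 alternative settings, as many as Pkm: with 1 FPKM added (adjusted p = 0.099), with a mean of at least 5 FPKM (0.086), with the replicate number as a block (0.094) and without WT 3. Without WT 2 the log2 fold change was -0.34 (adjusted p = 0.22) and without WT 3 it was -0.62 (adjusted p = 0.046).

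Pfkfb2, the heart-type form, was the most abundant PFKFB transcript. It measured 13.2, 14.0, 13.7 and 12.5 FPKM in KO 0 to KO 3 and 12.8, 12.2 and 11.3 FPKM in WT 1 to WT 3. KO 3 fell below WT 1, and the difference was 0.14 (95% interval -0.01 to 0.30, adjusted p = 0.22). Pfkfb4 averaged 4.00 FPKM in CrT-/y and 3.77 FPKM in CrT+/y (log2 fold change 0.08, adjusted p = 0.56).

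In lower glycolysis Pkm (chr9:59656368-59679375, plus strand), which makes pyruvate in the last step, was the 1 gene called. It measured 504.0, 483.2, 471.6 and 520.7 FPKM in KO 0 to KO 3 and 629.2, 580.3 and 539.3 FPKM in WT 1 to WT 3. All 4 CrT-/y values were below the 3 CrT+/y values, and the nearest animals, KO 3 and WT 3, were less than 20 FPKM apart. Pkm averaged 494.9 ± 21.8 FPKM (SD, n = 4) in CrT-/y, 84.9% of the 583.0 ± 45.0 FPKM (SD, n = 3) in CrT+/y. The log2 fold change was -0.23 (SE 0.071, 95% interval -0.39 to -0.08, adjusted p = 0.093, limma). The call rested on a narrow margin: it held in 4 of 17 alternative settings and was lost in 13, with adjusted p from 0.019 without WT 3 to 0.23 without WT 1, and the log2 fold change stayed between -0.29 and -0.17. It was lost on omission of any single animal other than WT 3.

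**Figure D2:**
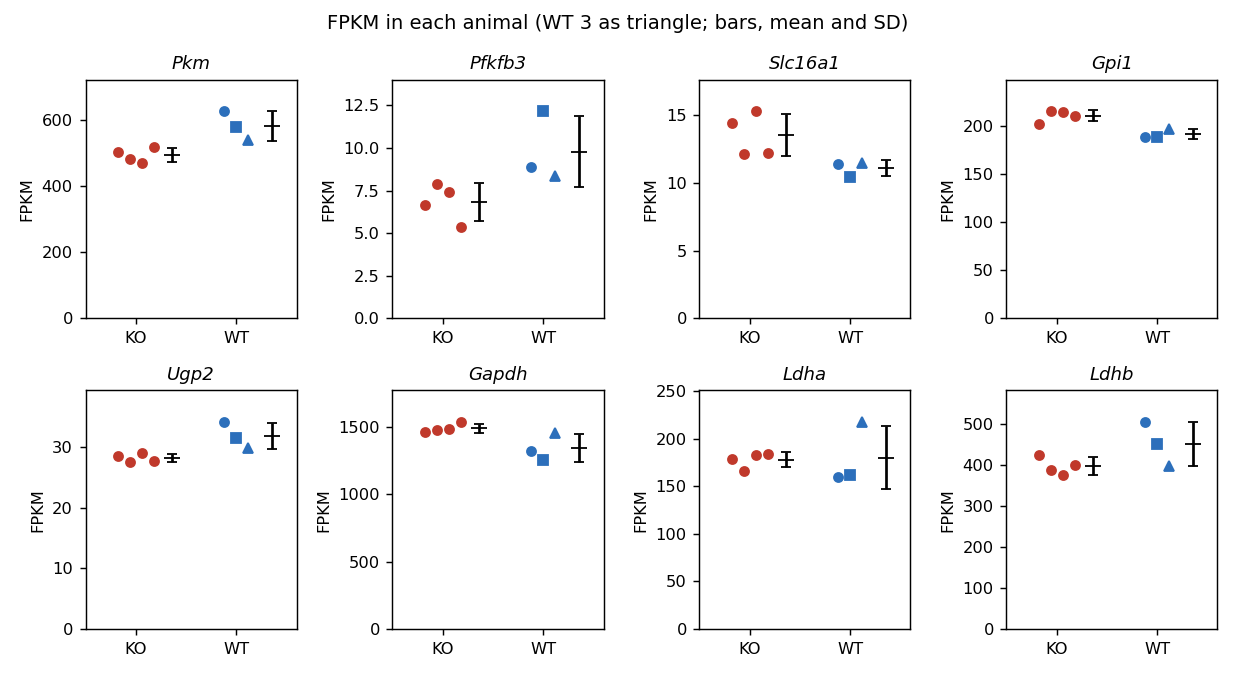
FPKM of 8 genes in each animal, with the axis from 0. Red points are the 4 CrT-/y (KO) animals, blue symbols the 3 CrT+/y (WT) animals with WT 3 as the triangle, and the bars give the mean and SD of each genotype. Pkm, Pfkfb3 and Ugp2 lay lower and Slc16a1, Gpi1 and Gapdh higher in every CrT-/y animal, whereas for Ldha WT 3 at 218.4 FPKM lay above all other animals.

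Gapdh measured 1459, 1472, 1481 and 1539 FPKM in KO 0 to KO 3 and 1321, 1253 and 1457 FPKM in WT 1 to WT 3. The genotypes did not overlap, but WT 3 and KO 0 were less than 2 FPKM apart. The log2 fold change was 0.15 (SE 0.073, 95% interval -0.02 to 0.31, adjusted p = 0.24), and without WT 3 it was 0.21 (adjusted p = 0.038). Since Gapdh is often taken as a reference transcript, its means ± SD were 1488 ± 35.3 FPKM over the 4 CrT-/y animals, against 1344 ± 104.0 FPKM over the 3 CrT+/y animals.

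The other genes of lower glycolysis overlapped between genotypes. Pgk1, phosphoglycerate kinase, had a log2 fold change of 0.08 (adjusted p = 0.55), Eno2, the enolase of neurons, 0.09 (adjusted p = 0.55) and Eno1, the broadly expressed enolase, 0.05 (adjusted p = 0.73). Pgam1, phosphoglycerate mutase, had a log2 fold change of -0.01 (adjusted p = 0.92), and it was 0.02 after median centring and 0.05 after upper quartile scaling. For Pgk1, Pgam1, Eno1 and Eno2 WT 3 was the highest of the 7 animals. Gapdh, Pgk1, Pgam1, Aldoa, Tpi1, Eno1, Ldha and Pkm have processed pseudogenes in the mouse genome, and the authors kept uniquely aligned reads, so reads from stretches shared with such copies may be missing from their values.

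**Figure D3:**
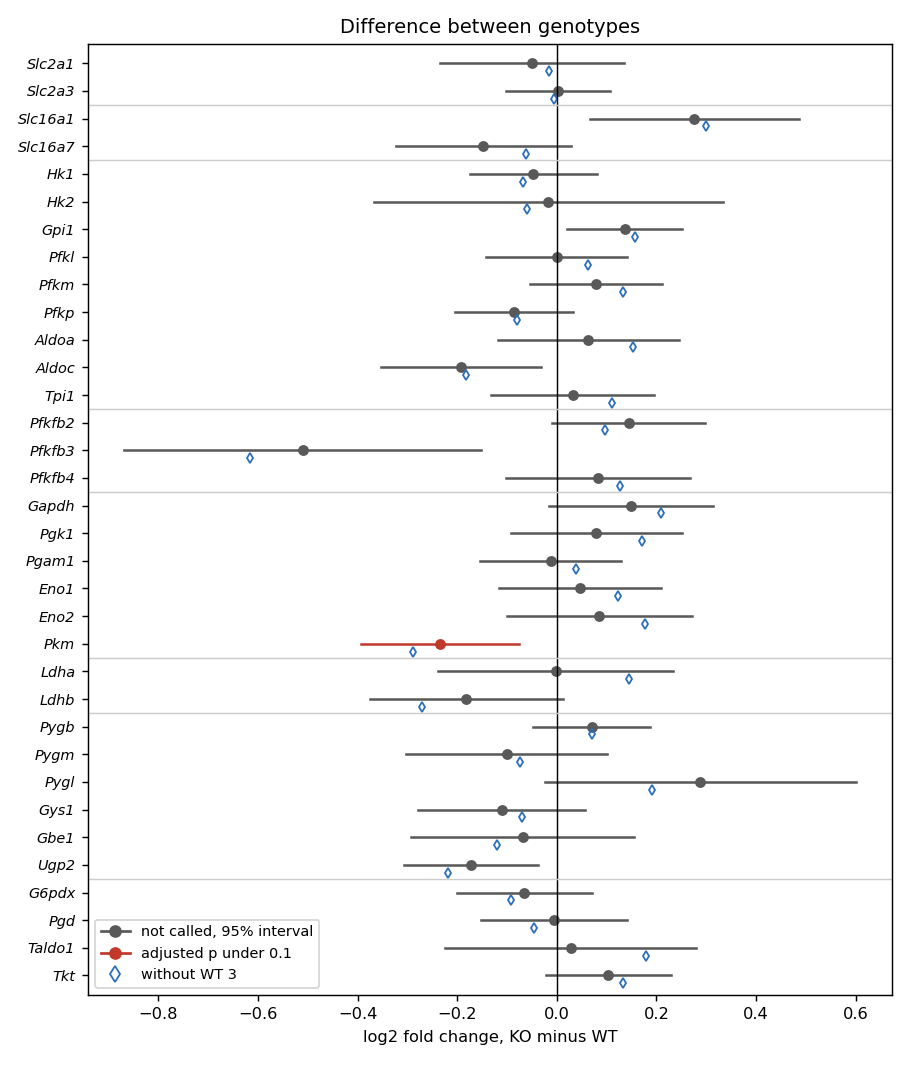
Log2 fold change of each gene, CrT-/y (KO) minus CrT+/y (WT), with its 95% interval from limma (n = 4 and 3 animals). Points are the differences, red for the 1 gene called (Pkm), and open blue diamonds give the difference without WT 3, most of them to the right of the point in lower glycolysis. All intervals but those of Pfkfb3 and Pygl lie within 0.5 of 0.

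The lactate dehydrogenase subunits, which join pyruvate and lactate, were not called. Ldhb, the subunit of neurons and heart, measured 425.1, 388.9, 374.9 and 401.0 FPKM in KO 0 to KO 3 and 506.6, 452.6 and 398.4 FPKM in WT 1 to WT 3. WT 3 lay inside the CrT-/y range and WT 1 and WT 2 above it. For Ldhb the log2 fold change was -0.18 (SE 0.086, 95% interval -0.38 to 0.01, adjusted p = 0.22), and without WT 3 it was -0.27 (adjusted p = 0.034).

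Ldha, the subunit that prevails in muscle and glia, was singled out after its values were seen. It measured 178.7, 166.7, 182.7 and 183.8 FPKM in KO 0 to KO 3 and 159.8, 162.1 and 218.4 FPKM in WT 1 to WT 3. The CrT-/y values all lay above WT 1 and WT 2 and below WT 3. Its log2 fold change was -0.0025 (95% interval -0.24 to 0.23, adjusted p = 0.99) with all animals and 0.14 (adjusted p = 0.097) without WT 3, and it was also above 0 under the 4 scalings of the libraries, at 0.0024 to 0.06. The log2 ratio of Ldha to Ldhb was -1.25 to -1.04 in CrT-/y and -1.66, -1.48 and -0.87 in WT 1, WT 2 and WT 3, so the spread within CrT+/y was wider than the gap between the means (-1.16 and -1.34).

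None of the 6 genes of glycogen metabolism was called. Pygb, the brain-type glycogen phosphorylase, measured 50.2, 48.0, 52.8 and 48.9 FPKM in KO 0 to KO 3 and 46.8, 48.3 and 47.6 FPKM in WT 1 to WT 3. Only KO 1 and WT 2 overlapped, and the difference was 0.07 (95% interval -0.05 to 0.19, adjusted p = 0.43). Ugp2, which makes the UDP-glucose from which glycogen is built, measured 28.5, 27.5, 29.1 and 27.7 FPKM in KO 0 to KO 3 and 34.2, 31.5 and 29.8 FPKM in WT 1 to WT 3. All 4 CrT-/y values were below the 3 CrT+/y values, WT 3 being nearest. Ugp2 had a log2 fold change of -0.17 (SE 0.060, 95% interval -0.31 to -0.04, adjusted p = 0.12).

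Pygm, the muscle-type phosphorylase that astrocytes also use, averaged 11.9 FPKM in CrT-/y and 12.7 FPKM in CrT+/y (adjusted p = 0.52). Pygl stood at 1.5 to 1.76 FPKM in CrT-/y and 1.14 to 1.42 FPKM in CrT+/y, a log2 fold change of 0.29 (95% interval -0.02 to 0.60, adjusted p = 0.23) without overlap. Gys1, the glycogen synthase outside liver, had a difference of -0.11 (adjusted p = 0.38) and Gbe1, the branching enzyme, of -0.07 (adjusted p = 0.70).

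None of the 4 pentose phosphate genes was called or free of overlap. Tkt, transketolase, measured 50.8, 47.7, 48.1 and 46.3 FPKM in KO 0 to KO 3 and 42.7, 45.2 and 46.8 FPKM in WT 1 to WT 3. KO 3 fell below WT 3, and the log2 fold change was 0.10 (95% interval -0.02 to 0.23, adjusted p = 0.28). Taldo1, transaldolase, measured 49.2, 49.0, 48.6 and 44.5 FPKM in KO 0 to KO 3 and 39.6, 45.0 and 57.9 FPKM in WT 1 to WT 3. WT 1 was the lowest and WT 3 the highest of the 7 animals, with the CrT-/y animals between them (log2 fold change 0.03, adjusted p = 0.90). G6pdx, which opens the pathway and makes its first NADPH, had a log2 fold change of -0.07 (95% interval -0.20 to 0.07, adjusted p = 0.54), and Pgd, which makes the second, of -0.0052 (95% interval -0.15 to 0.14, adjusted p = 0.97).

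**Figure D4:**
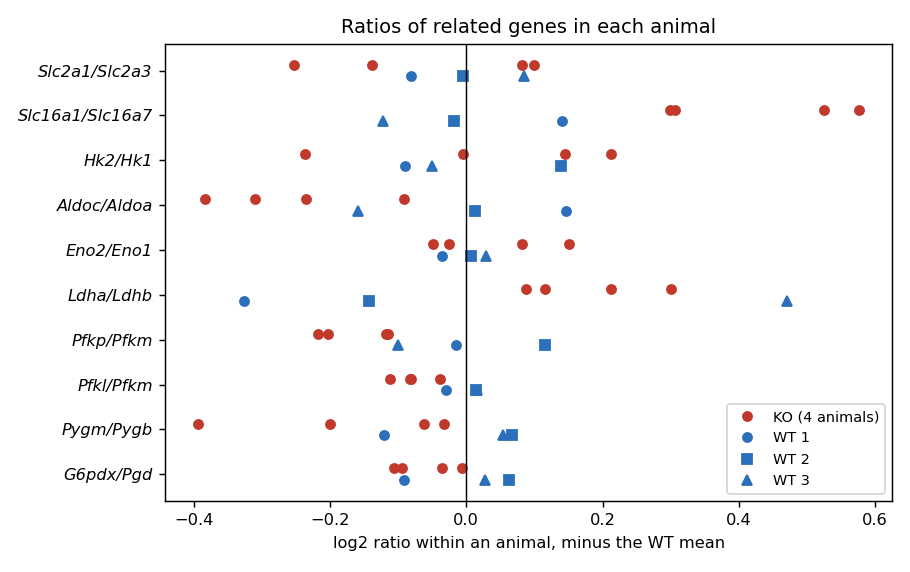
Log2 ratio of related genes within each animal, minus the mean of the 3 CrT+/y animals. Red points are the 4 CrT-/y (KO) animals and blue symbols WT 1 to WT 3. Slc16a1 over Slc16a7 lay higher, and Pfkp and Pfkl over Pfkm lower, in every CrT-/y animal, while for Ldha over Ldhb the CrT+/y animals lay on both sides of CrT-/y.

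Of the 10 ratios of related genes, none of them tested, 3 did not overlap between genotypes and 7 did: Slc2a1 to Slc2a3, Hk2 to Hk1, Aldoc to Aldoa, Eno2 to Eno1, Ldha to Ldhb, Pygm to Pygb and G6pdx to Pgd. Of the 3, that of Slc16a1 to Slc16a7 followed from its genes, and the others share Pfkm. The share without overlap was 21.6% for single genes and was not computed for other pairs of genes. For Aldoc to Aldoa the mean log2 ratio was -1.98 ± 0.13 (SD, n = 4) in CrT-/y and -1.72 ± 0.15 (SD, n = 3) in CrT+/y, and WT 3 alone lay within the CrT-/y range. For Eno2 to Eno1, a pair that contrasts neurons with other cells, the means were -0.42 and -0.46.

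WT 3 carried much of the spread within CrT+/y. It was the highest of the 3 CrT+/y animals for 18 of the 34 genes (52.9%, against 33.5% of all genes tested) and the highest of all 7 for 11 (32.4% against 17.5%). The median difference of WT 3 from the mean of WT 1 and WT 2 was 0.08 on the log2 scale over the 34 genes and 0.21 over the 6 genes of lower glycolysis, against -0.02 over all genes tested. For 9 of the 34 genes the range of CrT-/y lay inside that of CrT+/y (26.5%, against 21.04% of all genes). The CrT+/y SD exceeded the CrT-/y SD for 26 of the 34 genes (76.5%, against 71.5% of all genes).

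Without WT 3, 12 of the 34 genes were called (35.3%, against 28.7% of all genes tested). Slc16a1, Gpi1, Pfkm, Aldoa, Gapdh, Pgk1, Eno2 and Ldha were then higher in CrT-/y (8 genes, background 10.3%), and Pfkfb3, Pkm, Ldhb and Ugp2 were lower (4 genes, background 18.4%). Without WT 3 the differences were 0.15 for Aldoa, 0.17 for Pgk1, 0.18 for Eno2 and 0.13 for Pfkm, with adjusted p of 0.075, 0.050, 0.082 and 0.076. Omission of any other single animal left none of the 34 called. The labels give no reason to omit WT 3, which was kept, and no batch is given for any animal.

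**Figure D5:**
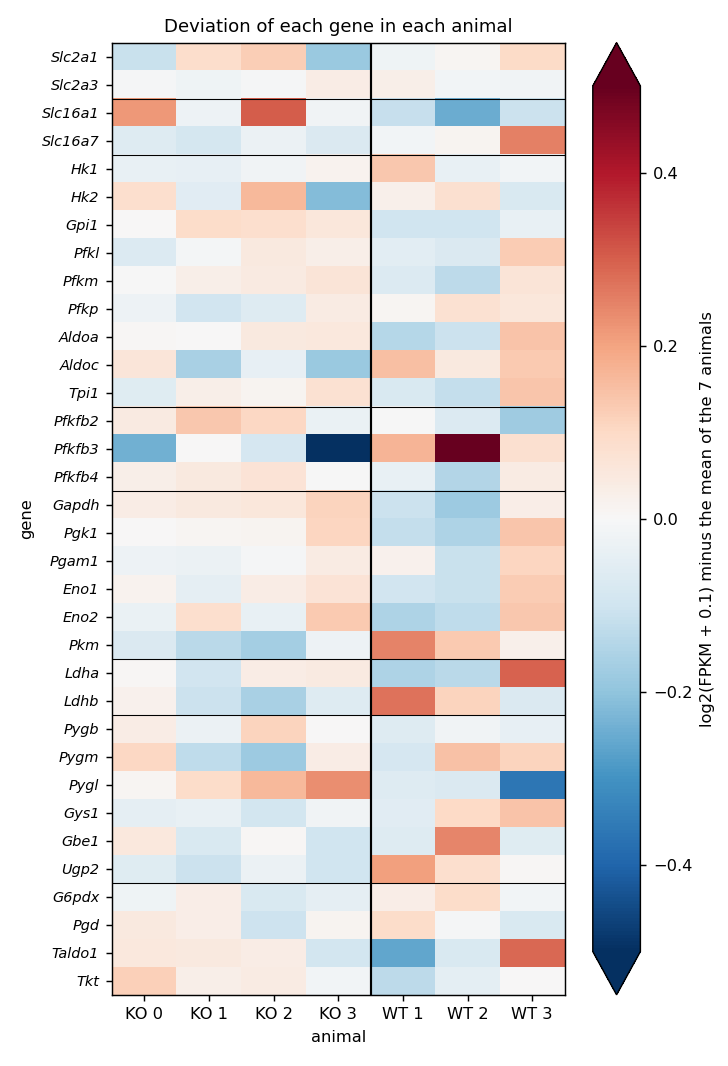
Deviation of each gene in each animal from its mean over the 7 animals, on the scale of log2(FPKM + 0.1), with red above and blue below the mean and the colour scale ending at 0.5 on either side. The lower glycolysis genes other than Pkm are red in WT 3 and mostly blue in WT 1 and WT 2, while the 4 CrT-/y columns are pale for most genes.

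Beyond the 34, a list of 73 other genes of the same pathways was chosen by role, with earlier results of these data known. It held 51 genes that passed the filter, and 11 of these were called (21.6%, against 10.1% of all genes tested). Of the 11, 4 were higher (against 2.90% of all genes) and 7 lower (against 7.25%). The median log2 fold change of the 51 was -0.03. Higher in CrT-/y were Slc16a11, a monocarboxylate transporter (log2 fold change 0.48, adjusted p = 0.024), Pgam2 and Eno3, the muscle-type mutase and enolase (0.46 and 0.43), and Slc2a8, an intracellular hexose transporter (0.38). Slc16a11 stood at 8.42 to 8.76 FPKM in CrT-/y and 5.86 to 6.64 FPKM in CrT+/y. Pgam2 and Eno3 averaged 5.62 and 3.25 FPKM in CrT-/y, far below Pgam1 and Eno1.

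Lower in CrT-/y were Phkb, a subunit of the kinase that activates glycogen phosphorylase (log2 fold change -0.40, adjusted p = 0.032), Rpe, an epimerase of the pentose phosphate pathway (-0.39), Emb, an ancillary protein of monocarboxylate transporters (-0.32), and Ppp1r3c, which targets a phosphatase to glycogen (-0.30). Also lower were Pgm2l1, which makes glucose 1,6-bisphosphate (-0.23), and the glycerol 3-phosphate dehydrogenases Gpd1 of the cytosol and Gpd2 of mitochondria (-0.21 each). Phkb stood at 7.96 to 9.15 FPKM in CrT-/y and 10.5 to 11.7 FPKM in CrT+/y. Of these 11 genes Slc16a11 was called in all 17 alternative settings and Phkb in 16, whereas Gpd1 was called in 3, and Emb, Gpd2 and Ppp1r3c in 5 each. None of the 11 changed sign.

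Markers of the cells that could carry these transcripts were followed in the same fit. Of 6 markers of inhibitory neurons 1 was called higher (Gad1) and none lower. Pvalb, not called, had a log2 fold change of -0.54 (adjusted p = 0.24), opposite in sign to Gad1. The inhibitory markers summed to 842.0 to 980.9 FPKM in CrT-/y and 907.4 to 925.7 FPKM in CrT+/y, so their sums overlapped. None of 6 oligodendrocyte or 6 microglial markers was called. The 6 choroid plexus and ependymal markers summed to 8.70 to 55.2 FPKM in CrT-/y and 8.67 to 402.0 FPKM in CrT+/y, the highest being WT 2. The 6 striatal markers summed to 132.1 to 327.4 FPKM in CrT-/y and 75.2 to 283.9 FPKM in CrT+/y. Of 4 blood markers 3 were tested and of 4 muscle markers 1, and none of these was called. Among the 3 CrT+/y animals WT 3 had the lowest sums for astrocytes, microglia and endothelium, the highest for inhibitory neurons, blood and muscle, and lay between the others for oligodendrocytes, choroid plexus and striatum. The part of these markers in the values of the 34 genes was not tested.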

How the data were processed

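Bulk cortical RNA-seq (paired-end) from 7 mice was analysed. The authors aligned reads to mm10 with the Tuxedo protocol (the submitters' processing notes name Bowtie and Cuffnorm), kept uniquely aligned reads with at most 2 mismatches, and deposited 1 FPKM value per gene and animal, normalized to transcript length and mapped reads. FPKM are not counts, so no count model was used. After addition of 0.1 and log2 transformation, the 12988 genes averaging 1 FPKM or more were fitted together with limma 3.58.1 (R 4.3.3), moderated with a trend, with Benjamini-Hochberg adjustment and calls at adjusted p under 0.1. Fold changes are of log2(FPKM + 0.1). The steps were tested on simulated data. Gene positions came from GENCODE M21. Members, lists and tests were chosen with earlier results of these data known. All 34 genes are named. Values in every animal are given for genes called, and in each role group for the gene with the highest mean and the uncalled gene with the smallest p, and otherwise where stated. Alternatives comprised 17 settings: other added constants, filters, scalings and moderation, a replicate block, and omission of each animal. Replicate numbers come from the labels, which do not say that they mark litters. The markers of excitatory neurons are not reported here.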

Additional observations from a re-analysis of the deposited data

Results flagged for a closer look

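Among 55 groups of 4 CrT-/y values examined for an animal far from the others, by Dixon's test at the 95% level, 2 stood out, and chance alone singles out about 1 in 20. For Pgk1, KO 3 was highest at 237.4 FPKM, against 220.6 to 222.6 FPKM in KO 0 to KO 2, and still below WT 3. For Taldo1, KO 3 was lowest at 44.5 FPKM, against 48.6 to 49.2 FPKM in the other CrT-/y animals. Neither gene was called with or without KO 3. Groups of 3 CrT+/y animals were not examined by this test.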

How the results depend on the processing

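The log2 fold change of Slc6a8 stayed between -1.10 and -0.98 and was called in all 17 settings, and 23 of the 34 genes kept their sign throughout. Called higher were 1 of the 34 after quantile normalization, 2 after upper quartile scaling and 2 after removal of the length trend, and 0 to 8 on omission of single animals. Called lower were 2 with 1 FPKM added and 2 with a mean of at least 5 FPKM (where Hk2, Pfkfb4, Pygl and Gbe1 were not tested), and 0 without a filter, after quantile normalization, median centring, upper quartile scaling or removal of the length trend, and without a moderation trend, and 0 to 4 on omission of single animals. Genes called numbered 730 without a filter, and 64 to 3736 on omission of single animals (8 and 4 of the 34 without WT 3). The median over the 34 was 0.061 after upper quartile scaling and -0.0066 to 0.050 on omission of single animals. The cause of these shifts was not tested.

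Sign changes concerned differences that were not called, apart from Ldha without WT 3. After quantile normalization the log2 fold change was 0.014 for Slc2a1, 0.069 for Pfkl, 0.022 for Ldha and 0.038 for Pgd. After median centring it was 0.020 for Hk2, 0.037 for Pfkl, 0.025 for Pgam1, 0.035 for Ldha and 0.032 for Pgd. After upper quartile scaling it was 0.012 for Slc2a1, 0.015 for Hk1, 0.041 for Hk2, 0.062 for Pfkl, 0.050 for Pgam1, 0.060 for Ldha and 0.057 for Pgd. After removal of the length trend it was 0.0022 for Hk1, 0.044 for Hk2, 0.044 for Pfkl, 0.0024 for Ldha and 0.037 for Pgd. With 0.01 FPKM added it was 1.5e-06 for Pfkl. On omission of single animals the log2 fold changes spanned -0.098 to 0.0048 for Slc2a1, -0.0097 to 0.017 for Slc2a3, -0.080 to 0.0061 for Hk1, -0.074 to 0.053 for Hk2, -0.036 to 0.063 for Pfkl, -0.019 to 0.11 for Tpi1, -0.071 to 0.038 for Pgam1, -0.081 to 0.14 for Ldha, -0.12 to 0.034 for Gbe1, -0.046 to 0.039 for Pgd and -0.095 to 0.18 for Taldo1.

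Animals 1 to 3 of each genotype share numbers. Deviations of same-numbered animals correlated at -0.08, 0.05 and -0.05, and KO 1 and KO 3 did not correlate best with their own number. With so few animals, and deviations taken from the group means, these values cannot show whether the numbers mark pairs. A fit with the replicate number as a block, on 6 animals, gave 583 genes called, against 614 without the block, and a log2 fold change of 0.023 for Pfkl. Under the block Pkm was not called (adjusted p = 0.20) and Pfkfb3 was (adjusted p = 0.094). The deposited values are not counts, and the reads per replicate that the paper reports were not used, so counting error was not given.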
